A study of Mus musculus with 12 samples.

Results

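Polycomb group proteins form chromatin complexes that keep genes silent. Polycomb repressive complex 2 (PRC2) methylates histone H3 at lysine 27 (H3K27) through EZH2 or its paralog EZH1, held together by EED and SUZ12. Polycomb repressive complex 1 (PRC1) ubiquitinates histone H2A through RNF2 (RING1B) or RING1 paired with a PCGF subunit, and ASXL1 is a cofactor of BAP1, which removes that ubiquitin; in blood cells these complexes hold back developmental genes such as the *Hox* clusters and cell cycle inhibitors. H3K27 is also the residue that p300 and CBP acetylate, and one lysine cannot carry both marks.

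The 10 genes described here are *Ezh1*, *Ezh2*, *Eed*, *Suz12*, *Jarid2*, *Bmi1*, *Pcgf1*, *Rnf2*, *Ring1* and *Asxl1*. They were listed by name for their place in these complexes, without a filter on their values but with earlier results of these data known. All 10 were among the 15651 genes with deposited expression values. In GENCODE vM21 (GRCm38) the PRC2 genes lie at chr6:47530139-47595341 (*Ezh2*, minus strand), chr11:101191115-101226463 (*Ezh1*, minus), chr7:89954654-89980983 (*Eed*, minus), chr11:79993106-80034123 (*Suz12*, plus) and chr13:44729474-44921643 (*Jarid2*, plus). The PRC1 genes lie at chr1:151458004-151500955 (*Rnf2*, minus), chr17:34020792-34024680 (*Ring1*, minus), chr2:18677018-18686629 (*Bmi1*, plus) and chr6:83077869-83080855 (*Pcgf1*, plus), and *Asxl1* at chr2:153345829-153404007 (plus). RNA was sequenced from leukemic splenocytes enriched for c-Kit+ cells, taken from moribund mice with acute myeloid leukemia (AML): 3 *D/F* mice (Dnmt3a fl/fl, Flt3 ITD/ITD, Mx1Cre) and 3 *T/F* mice (Tet2 fl/fl, Flt3 ITD/ITD, Mx1Cre). Each mouse gave one culture in CCS1477 (inobrodib), an inhibitor of the p300/CBP bromodomain, and one in the solvent DMSO, both harvested after 6 hours, for 12 libraries in 4 groups of 3.

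All 4 groups carry the homozygous internal tandem duplication in *Flt3* and the interferon-responsive Mx1Cre, and none of the groups analysed here lacks them. Cre was not induced by injection, so one or both floxed alleles of *Dnmt3a* or *Tet2* were lost spontaneously, and the labels do not say how many in each mouse. Their ages are not given. The cells were cultured in serum with stem cell factor, IL-6 and IL-3. *D/F* cells received 4 μM CCS1477 but *T/F* cells 2 μM, so genotype and dose cannot be told apart in any comparison of the responses. Libraries came from separate mice within a group, so p-values of tests that leave the pairing out measure the spread between mice. Such tests of the treatment take the cultures of a mouse as independent. Tests that pair the cultures of each mouse measure the spread of the differences within mice.

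Values are in TPM, transcript abundance scaled to a fixed total, which is a level per transcript length and a share of each library, so levels of different genes can be set side by side but a change in total RNA per cell cannot be seen. Libraries summed to 914204 to 931697 TPM, and the number of reads behind each value is unknown. Both libraries of *D/F* replicate 2 stood apart: they correlated at 0.947 to 0.958 with the other libraries of their groups, against 0.979 to 0.983 among the others in *D/F* and 0.978 to 0.991 in *T/F*, and megakaryocyte markers summed to 212 TPM in its DMSO library against 34.9 and 50.3 TPM in the other *D/F* mice. Results in *D/F* without that mouse are given for some genes only, and where none is given the value may also change. *Dnmt3a* was detected in all 12 libraries, at 29.3 to 55.7 TPM in *D/F* DMSO libraries and at 39.9 to 53.9 TPM in *T/F*, and *Tet2* at 38.3 to 43.4 and 30.0 to 35.8 TPM; these sums over a whole gene do not show whether the floxed part was lost. Of the markers behind the enrichment and the diagnosis, *Kit* was at 50.5 to 149 TPM in the DMSO libraries. The myeloid enzyme gene *Mpo* was at 1163 to 3673 TPM there. *Cd79a*, *Ms4a1*, *Cd3e* and *Cd3g* had no values in the table, but other lymphoid markers did. In the DMSO libraries *Cd79b* was at 10.4 to 22.8 TPM and *Cd3d* at 7.96 to 14.9 TPM. The B cell markers with values summed to at most 25.6 TPM and the T and NK cell markers to at most 28.1 TPM.

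The sequences just upstream of 4 members are shown because these are the paralog pairs of both catalytic activities, *Ezh1* and *Ezh2* for H3K27 methylation and *Ring1* and *Rnf2* for H2A ubiquitination, and all 4 were higher in CCS1477 than in DMSO in every mouse (below, each with its test). They are from the RefSeq promoter table on GRCm38.p6, read 5′ to 3′ on the strand of the gene, all on the minus strand, ending 1 base before the RefSeq transcription start except for *Ezh2*, where the stretch between annotated exons is shown. That *Ezh2* stretch is upstream of the RefSeq start but lies within the GENCODE span of the gene given above. Capitals mark matches to the NRF1-type motif, GCGC followed by any 2 bases and GCGC (*Ezh1*, *Rnf2*), or to the CCAAT box (*Ezh2*, shown as ATTGG where it lies on the other strand), both searched on both strands.
Ezh1 (chr11:101226464-101226713, 250 bases): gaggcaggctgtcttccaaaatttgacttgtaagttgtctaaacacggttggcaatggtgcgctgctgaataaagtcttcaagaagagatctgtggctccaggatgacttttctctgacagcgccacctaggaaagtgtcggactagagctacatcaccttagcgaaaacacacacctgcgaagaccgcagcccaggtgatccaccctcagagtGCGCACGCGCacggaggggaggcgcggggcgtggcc
Ezh2 (chr6:47595059-47595183, 125 bases): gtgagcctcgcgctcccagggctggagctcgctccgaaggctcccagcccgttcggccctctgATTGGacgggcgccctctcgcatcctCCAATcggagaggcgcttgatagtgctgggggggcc
Rnf2 (chr1:151500992-151501241, 250 bases): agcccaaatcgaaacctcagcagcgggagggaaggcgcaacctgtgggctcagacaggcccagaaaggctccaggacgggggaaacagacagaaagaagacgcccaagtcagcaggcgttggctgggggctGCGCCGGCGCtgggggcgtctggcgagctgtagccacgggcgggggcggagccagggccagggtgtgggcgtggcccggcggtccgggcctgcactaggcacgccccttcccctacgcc
Ring1 (chr17:34024681-34024930, 250 bases): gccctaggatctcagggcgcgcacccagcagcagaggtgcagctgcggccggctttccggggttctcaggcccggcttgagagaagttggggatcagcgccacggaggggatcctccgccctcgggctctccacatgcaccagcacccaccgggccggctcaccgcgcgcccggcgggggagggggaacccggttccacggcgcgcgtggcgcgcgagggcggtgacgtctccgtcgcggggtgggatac

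Of the 10 members, 9 had an entry in that table. Over the 250 bases upstream of the start, the NRF1-type motif was found in 3 of these 9 (*Ezh1*, *Ezh2* and *Rnf2*) and in 4.98% of all 32851 promoters. The CCAAT box was found in 3 (*Ezh2*, *Suz12* and *Jarid2*, against 33.8% of all promoters), the E-box CACGTG in *Bmi1* alone (6.02%), and the E2F-type motif TTTNGCGC in none (1.13%). The *Ezh2* match to the NRF1-type motif and the *Ezh2* CCAAT match nearest the start lie outside the stretch printed. The shares over all promoters were not matched for G and C, which made up 54.4% to 73.6% of the windows of the 9 genes. The *Ring1* window held no match to any of the 4 motifs searched. A match is a run of letters and does not show that a factor binds there.

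*Ezh2* and *Suz12*, both of the PRC2 core, were the most abundant of the 10. *Ezh2* had the highest level in all 4 groups, with a mean of 185 ± 15.7 TPM (SD, n = 3) in *D/F* DMSO and 175 ± 8.28 TPM in *T/F* DMSO, and *Suz12* came next at 149 ± 6.73 and 156 ± 5.73 TPM, with no overlap between these neighbors in any group. *Asxl1*, *Jarid2* and *Bmi1* followed at 83.2, 71.3 and 55.2 TPM in *D/F*, where the ranges of *Asxl1* and *Jarid2* overlapped, as they did in *T/F*. *Ezh1*, *Eed*, *Rnf2* and *Ring1* lay between 18.8 and 54.1 TPM in the DMSO groups, and *Pcgf1*, which defines a variant PRC1, was lowest in every group, at 9.64 ± 1.42 and 9.06 ± 1.36 TPM. *Ezh1* ranked 6 of 10 in *D/F* DMSO and 3 of 10 in *D/F* CCS1477, and 7 and 5 of 10 in *T/F*. Its *D/F* ranges overlapped those of the genes next in order, and without replicate 2 it ranked 7 and 4 of 10 there.

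**Figure D1:**
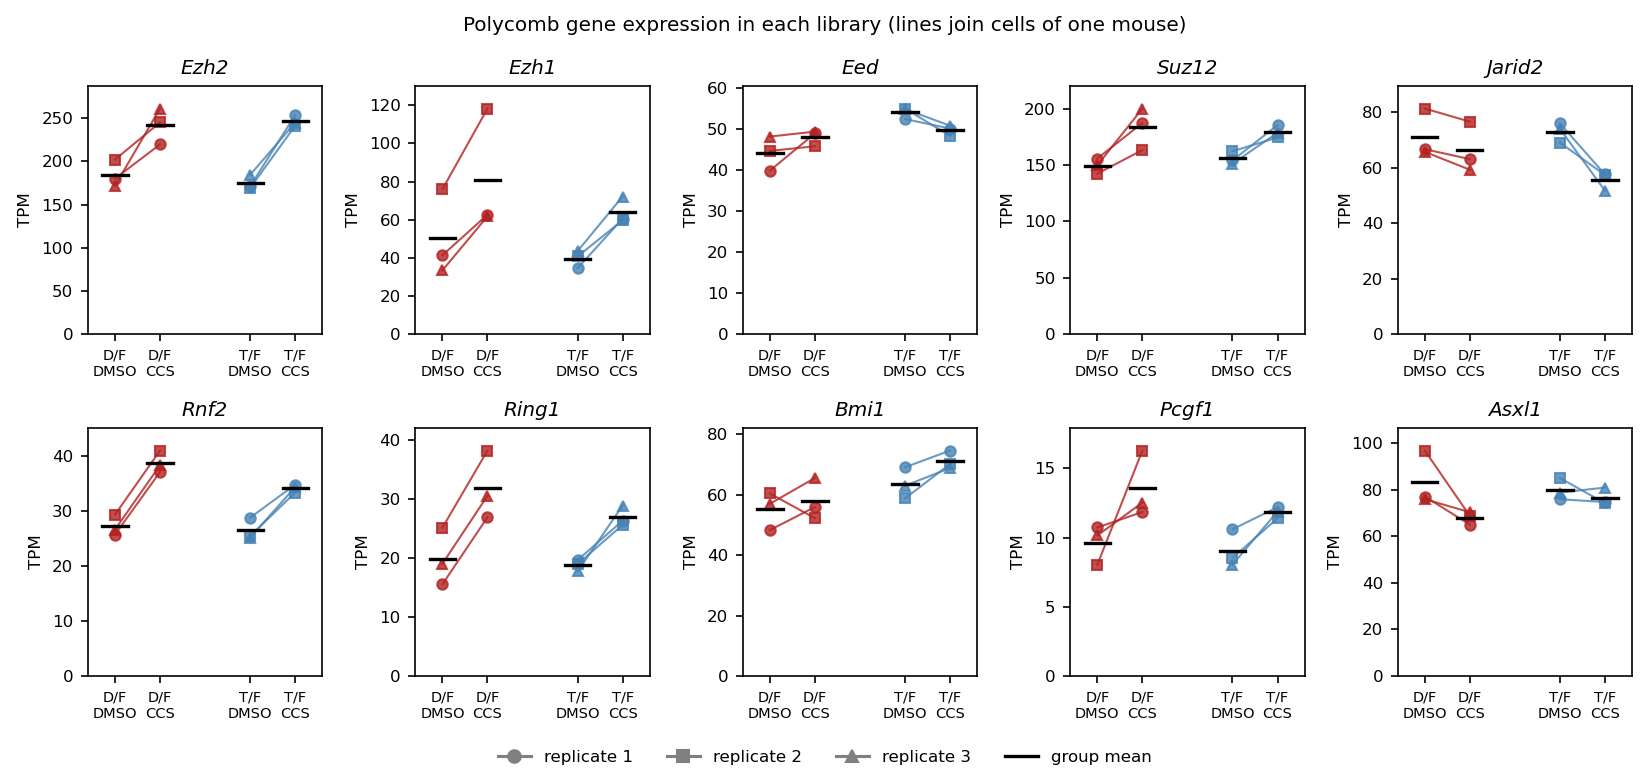
TPM (vertical axes, starting at 0) of each of the 10 Polycomb genes in the 4 groups, with 1 point per library, lines joining the DMSO and CCS1477 cells of a mouse, *D/F* in red, *T/F* in blue and black bars for group means (n = 3). Lines of *Ezh2*, *Ezh1*, *Suz12*, *Rnf2*, *Ring1* and *Pcgf1* slope up in all 6 mice and those of *Jarid2* slope down in all 6.

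Between CCS1477 and DMSO, 7 of the 10 genes differed in the same direction in all 6 mice. *Ezh1*, *Ezh2*, *Suz12*, *Rnf2*, *Ring1* and *Pcgf1* were higher and *Jarid2* was lower in CCS1477 than in DMSO in 6 of 6 mice, each with an exact two-sided sign-flip p of 0.0312, the smallest that 6 mice allow. Among all 15583 genes tested, 56.0% moved the same way in 6 of 6 mice (31.8% higher, 24.2% lower). *Bmi1* was higher in 5 of 6 mice (exact sign-flip p = 0.156), *Asxl1* lower in 5 of 6 (exact sign-flip p = 0.0938), and *Eed* higher in the 3 *D/F* mice and lower in the 3 *T/F* mice, a split between genotypes that 2.06% of all genes showed. In bulk libraries, fewer cells of a type and less RNA per cell cannot be told apart.

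In *T/F* cells, 7 of the 10 genes passed an adjusted p of 0.05 in limma, 6 higher and 1 lower, and 43.4% of all genes did (25.8% higher, 17.6% lower). After rescaling each library to its median gene, *Ezh1*, *Ezh2*, *Ring1* and *Jarid2* still passed in *T/F*, and without *T/F* replicate 2 only *Ezh2* and *Ring1* did. In *D/F* cells 0 of 10 passed in limma, where 11.6% of all genes did (5.14% higher, 6.51% lower), and 3 of the 10 (*Ezh2*, *Rnf2* and *Ring1*) had an unadjusted p under 0.05 and 1 (*Rnf2*) passed with an eBayes trend. With the mouse as a block, which pairs the cells of each mouse, *Ezh1*, *Rnf2* and *Ring1* passed in *D/F*, all higher, against 39.3% of all genes (21.4% higher, 18.0% lower), and the same 3 passed without *D/F* replicate 2. Over both genotypes, 6 of 10 passed, all higher, and 45.3% of all genes did (25.8% higher, 19.6% lower). None of the 10 changed by more than 2-fold in these comparisons. Of all genes, 7.28% in *D/F*, 7.33% in *T/F* and 8.8% over both passed the adjusted p with more than 2-fold. *D/F* had a median log2 fold change of 0.34 over the 10 and 0.06 over all genes tested, and *T/F* of 0.28 and 0.07.

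**Figure D2:**
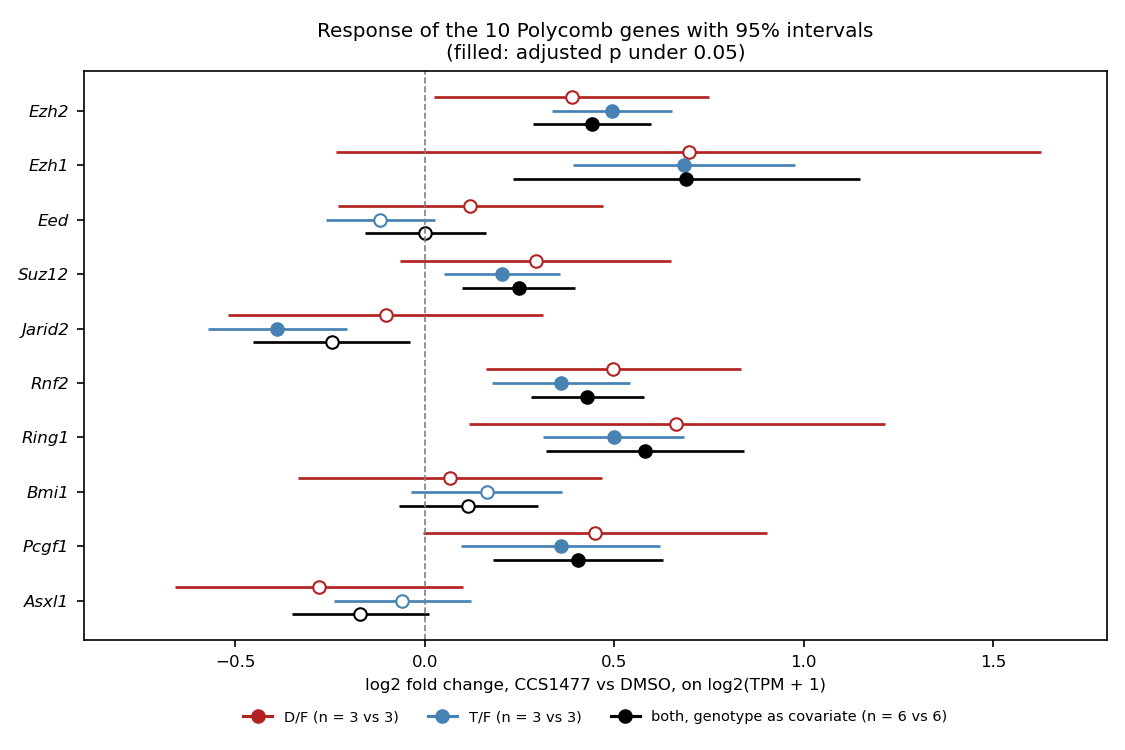
Log2 fold change of CCS1477 over DMSO on the log2(TPM + 1) scale (horizontal axis) for each of the 10 genes, with 95% intervals from limma, in *D/F* (red), *T/F* (blue) and both genotypes (black); filled points have an adjusted p under 0.05. All 10 points of *D/F* are open, 7 points of *T/F* and 6 of both genotypes are filled, and the intervals are wider in *D/F* than in *T/F* for all 10 genes.

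The catalytic subunits of PRC2 were both higher in CCS1477. *Ezh2*, the methyltransferase that predominates in dividing cells, was at 180.1, 202 and 172 TPM in the DMSO cells of *D/F* replicates 1, 2 and 3 and at 219.7, 245 and 261 TPM in their CCS1477 cells. In *T/F* it was at 171, 169 and 184 TPM in DMSO and at 254, 241 and 245 TPM in CCS1477. CCS1477 cells lay above DMSO cells without overlap in both genotypes, and those of *T/F* lay close together. The log2 fold change was 0.49 ± 0.06 (SE, n = 3) in *T/F* (adjusted p = 0.0024) and 0.39 ± 0.15 in *D/F* (adjusted p = 0.144, 0.0543 with the mouse as a block and 0.0822 without replicate 2), and 0.44 ± 0.07 over both genotypes (n = 6, adjusted p = 0.000442).

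*Ezh1*, the paralog that is also expressed in resting cells, had the largest log2 fold change of the 10 in both genotypes. Its levels in *D/F* were 41.3, 76.0 and 33.4 TPM in DMSO and 62.6, 118 and 61.8 TPM in CCS1477. Those in *T/F* were 34.5, 40.7 and 43.5 TPM in DMSO and 60.5, 59.7 and 72.1 TPM in CCS1477. *D/F* replicate 2 was the highest of its group under both treatments, so the *D/F* groups overlapped while the *T/F* groups did not. Ratios of CCS1477 to DMSO within a mouse were 1.52, 1.56 and 1.85 for the *D/F* mice and 1.75, 1.47 and 1.66 for the *T/F* mice. The *Ezh1* log2 fold change reached 0.68 ± 0.12 in *T/F* (adjusted p = 0.0063). In *D/F* it was 0.70 ± 0.39 (adjusted p = 0.279), with an SE of 0.10 and an adjusted p of 0.0127 with the mouse as a block, and 0.73 ± 0.14 (adjusted p = 0.0362) without replicate 2. *Ezh1* gave 18.7%, 27.3% and 16.3% of the summed *Ezh1* and *Ezh2* TPM in *D/F* DMSO and 22.2%, 32.5% and 19.1% in CCS1477. The share was 16.8%, 19.4% and 19.1% in *T/F* DMSO and 19.3%, 19.8% and 22.8% in CCS1477, so it was higher with the drug in each of the 6 mice.

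Of the noncatalytic PRC2 members, *Suz12* was higher and *Jarid2* lower in *T/F*, and *Eed* did not pass. *Suz12*, the scaffold subunit, was at 156, 142 and 149.8 TPM in *D/F* DMSO, 187, 163 and 200.1 TPM in *D/F* CCS1477, 154, 162 and 151 TPM in *T/F* DMSO and 185, 174 and 179 TPM in *T/F* CCS1477. DMSO and CCS1477 groups did not overlap in either genotype. Its log2 fold change was small, 0.20 ± 0.06 in *T/F* (adjusted p = 0.0424) and 0.29 ± 0.15 in *D/F* (adjusted p = 0.24), and 0.25 ± 0.07 over both genotypes (adjusted p = 0.0116).

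*Eed*, which binds methylated H3K27 and stimulates the enzyme, had no fold change that passed in any comparison. It was at 39.8, 44.6 and 48.1 TPM in *D/F* DMSO and 48.9, 45.8 and 49.4 TPM in *D/F* CCS1477, and these groups overlapped. In *T/F* it was at 52.4, 55.0 and 54.9 TPM in DMSO and 50.1, 48.3 and 50.8 TPM in CCS1477, which did not overlap. The log2 fold change was 0.12 (95% interval -0.23 to 0.47) in *D/F* and -0.12 (-0.26 to 0.03) in *T/F*.

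*Jarid2*, an accessory subunit that helps to recruit PRC2, was the only member lower in CCS1477 in 6 of 6 mice. It was at 66.7, 81.4 and 65.8 TPM in *D/F* DMSO and 63.1, 76.7 and 59.3 TPM in *D/F* CCS1477, a difference within the spread between mice. Its *T/F* levels were 76.0, 69.1 and 74.0 TPM in DMSO and 57.6, 57.4 and 51.7 TPM in CCS1477, with no overlap. *Jarid2* fell by 0.39 on the log2 scale in *T/F* (SE 0.07, adjusted p = 0.00896); the *D/F* log2 fold change was -0.10 ± 0.17 (adjusted p = 0.735). Over both genotypes the log2 fold change was -0.25 ± 0.09 (adjusted p = 0.0529), which passed with the mouse as a block (adjusted p = 0.0208, where 60.3% of all genes passed and 25.9% were lower) and without *D/F* replicate 2 (adjusted p = 0.00796).

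Both E3 ligases of PRC1 were higher in CCS1477. *Rnf2* was at 25.7, 29.4 and 26.6 TPM in *D/F* DMSO and 37.1, 41.0 and 38.3 TPM in *D/F* CCS1477. *T/F* cells had 28.8, 25.5 and 25.2 TPM in DMSO and 34.8, 33.4 and 34.4 TPM in CCS1477. Neither genotype showed overlap between treatments, and *Rnf2* had the smallest spread of within-mouse log2 differences of the 10 (mean 0.43, SD 0.10, n = 6 mice). Its log2 fold change was 0.36 ± 0.07 in *T/F* (adjusted p = 0.0113). In *D/F* it was 0.50 ± 0.14 (adjusted p = 0.0676, 0.0165 with the mouse as a block and 0.038 without replicate 2). *Rnf2* shares 158 annotated bases with *Trmt1l* on the opposite strand, so reads there are uncertain where strand was not used in counting.

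*Ring1* was at 15.6, 25.2 and 19.1 TPM in *D/F* DMSO and at 26.9, 38.2 and 30.6 TPM in *D/F* CCS1477. Its *T/F* levels were 19.7, 19.0 and 17.7 TPM in DMSO and 26.4, 25.6 and 28.9 TPM in CCS1477. Again the treatments did not overlap, and *D/F* replicate 2 was the highest under both. The log2 fold change was 0.50 ± 0.08 in *T/F* (adjusted p = 0.00394), 0.66 ± 0.23 in *D/F* (adjusted p = 0.109, 0.0108 with the mouse as a block and 0.0419 without replicate 2) and 0.58 ± 0.12 over both genotypes (adjusted p = 0.0021). The sum of *Ring1* and *Rnf2* was 41.3 to 54.5 TPM in *D/F* DMSO and 64.05 to 79.2 TPM in *D/F* CCS1477, and 42.9 to 48.5 and 59.0 to 63.3 TPM in *T/F*. *Ring1* made up 37.7% to 46.2% of that sum in DMSO and 42.1% to 48.3% in CCS1477 libraries, and its share was higher with the drug in 6 of 6 mice.

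Of the PCGF subunits among the 10, which set the type of PRC1, *Pcgf1* was higher in *T/F* and *Bmi1* did not pass. Of the PCGF subunits outside the 10, *Pcgf3* was higher and *Pcgf2*, *Pcgf5* and *Pcgf6* were lower in CCS1477 in 6 of 6 mice. Over all genes, 31.8% were higher and 24.2% lower in 6 of 6. These PCGF genes outside the 10 were named after their values were seen. *Pcgf1* was at 10.7, 8.04 and 10.2 TPM in *D/F* DMSO and 11.8, 16.3 and 12.5 TPM in *D/F* CCS1477. In *T/F* it was at 10.6, 8.53 and 8.05 TPM in DMSO and 12.2, 11.4 and 11.9 TPM in CCS1477. No treatment groups overlapped, and in *D/F* replicate 2 had both the lowest DMSO and the highest CCS1477 value. The log2 fold change was 0.36 ± 0.11 in *T/F* (adjusted p = 0.0388) and 0.45 ± 0.19 in *D/F* (adjusted p = 0.169), where it dropped to 0.20 ± 0.11 (adjusted p = 0.229) without replicate 2.

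*Bmi1* (PCGF4), the subunit of canonical PRC1 known for repressing the *Cdkn2a* locus and sustaining stem cells, passed in no comparison. It was at 48.3, 60.4 and 57.0 TPM in *D/F* DMSO and 55.9, 52.2 and 65.5 TPM in *D/F* CCS1477. Its levels in *T/F* were 69.0, 58.7 and 62.9 TPM in DMSO and 74.6, 70.1 and 68.8 TPM in CCS1477. Treatments overlapped in both genotypes. The *D/F* log2 fold change was 0.07 ± 0.17 (adjusted p = 0.83) with all mice and 0.20 ± 0.15 (adjusted p = 0.368) without replicate 2, and the value over both was 0.12 (95% interval -0.07 to 0.30).

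*Asxl1*, the BAP1 cofactor that is itself mutated in human myeloid leukemia, was at 77.0, 96.7 and 75.9 TPM in *D/F* DMSO and 64.9, 68.7 and 70.3 TPM in *D/F* CCS1477, with no overlap. *T/F* cells had 75.8, 85.0 and 78.7 TPM in DMSO and 74.6, 74.2 and 80.8 TPM in CCS1477, which overlapped. *Asxl1* had a log2 fold change of -0.28 ± 0.16 in *D/F* (adjusted p = 0.286; -0.18 ± 0.11 and adjusted p = 0.292 without replicate 2) and -0.06 ± 0.07 in *T/F* (adjusted p = 0.549), so neither passed.

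Counting ranges, 5 of the 10 genes lay wholly higher and 1 wholly lower in CCS1477 in *D/F*, where 19.9% and 16.7% of all genes did, and 6 lay wholly higher and 2 wholly lower in *T/F*, where 33.5% and 22.6% did. The smallest two-sided p of an exact permutation test of 3 libraries against 3 is 0.1, and each of these genes reached it.

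The responses of the genotypes were not distinguishable for any of the 10. In limma 0 of 10 differed at an adjusted p of 0.05, 0 had an unadjusted p under 0.05 and 0.0% of all genes passed; with the mouse as a block 0 passed and 1, *Jarid2*, had an unadjusted p under 0.05 (0.0253, adjusted p = 0.283). The *T/F* response of *Jarid2* minus that of *D/F* was -0.29 (95% interval -0.68 to 0.11), and that of *Ezh2* was 0.11 (-0.21 to 0.43). For *Ezh1* the interval of -0.98 to 0.96 leaves differences of nearly 2-fold either way.

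The genotypes also did not differ detectably within a treatment. In DMSO, limma called 0 of 10 between *T/F* and *D/F*, with 0 at an unadjusted p under 0.05 and 0.0328% of all genes called, and eBayes with a trend gave 0 called and 1, *Eed*, under that unadjusted p. *Eed* was also the only member whose DMSO groups did not overlap, higher in *T/F*, where 5.17% of all genes were wholly higher and 7.42% wholly lower (log2 difference 0.29, 95% interval -0.001 to 0.578, adjusted p = 0.803). In CCS1477, 0 of 10 passed against 0.0329% of all genes, and 1, *Bmi1*, had an unadjusted p under 0.05 (log2 difference 0.30 ± 0.12, adjusted p = 0.46). In that treatment *Bmi1* and *Asxl1* lay wholly higher and *Jarid2* and *Rnf2* wholly lower in *T/F*, where 9.59% and 10.7% of all genes did. Each genotype has a dose of its own in that comparison.

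Across the 12 libraries, Pearson correlations of log2(TPM + 1) among the 15 pairs of the 6 members higher in CCS1477 ranged from 0.33 (*Ezh1* and *Suz12*) to 0.944 (*Rnf2* and *Ring1*), with a median of 0.76. Their shared difference between treatments by itself gives positive values, and the points share mice in pairs, so these correlations describe the libraries only. *Ezh1* and *Ezh2* correlated at 0.779, *Jarid2* at -0.759 with *Suz12* and *Asxl1* at -0.744 with *Pcgf1*. Among 11603 genes averaging 5 TPM or more, the patterns most like *Ezh1* over the 12 libraries were those of *Fam120b* (r = 0.991), *Dynlt1c* (r = 0.991) and *Kmt2c* (r = 0.990), and those most like *Ezh2* were *Zfp740* (r = 0.981), *Mier3* (r = 0.980) and *Lrrc20* (r = 0.975). In *D/F* replicate 2, *Ezh1* was the highest of its group under both treatments (76.0 and 118 TPM). Correlations without that mouse are not given, and those of *Ezh1* may depend on it.

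The rest of the Polycomb machinery was described by lists. Among 27 other PRC1 subunits, 4 were called higher and 0 lower in *D/F* and 11 higher and 2 lower in *T/F*, where 11.6% and 43.4% of all genes were called in either direction. The list's median log2 fold change was 0.28 in the first and 0.23 in the second. Blocking by mouse gave 9 higher and 2 lower in *D/F*, against 39.3% of all genes. With both directions pooled, these counts lie near the shares over all genes. By direction, the calls in the list were mostly higher, more so than over all genes. For *D/F*, limma called 5.14% of all genes higher and 6.51% lower. The shares for *T/F* were 25.8% higher and 17.6% lower. Blocking by mouse gave 21.4% higher and 18.0% lower for *D/F*. Within mice, 16 of the 27 were higher and 5 lower in CCS1477 in 6 of 6 mice, where 31.8% and 24.2% of all genes were. The 5 lower were *Pcgf2*, *Pcgf5*, *Pcgf6*, *L3mbtl2* and *E2f6*, named after their values were seen. The 4 that limma called higher in *D/F* were *Cbx2*, *Cbx8*, *Rybp* and *Bcorl1*. Of these, *Bcorl1* (log2 fold change 0.72 ± 0.15, adjusted p = 0.0354) was named after its values were seen, since its *T/F* change did not pass. The other 3 passed in both genotypes, but *Cbx8* in *T/F* passed in only 6 of 11 alternatives (adjusted p up to 0.206, and 0.0555 with the mouse as a block), and *Rybp* in *T/F* in 9 of 11 (adjusted p up to 0.0519). *Cbx2*, a chromodomain subunit of canonical PRC1 that reads H3K27 methylation, was at 7.54, 10.7 and 6.36 TPM in *D/F* DMSO and 22.1, 26.1 and 26.6 TPM in CCS1477. In *T/F* it was at 5.72, 6.22 and 7.89 TPM in DMSO and 22.0, 18.4 and 22.9 TPM in CCS1477. These groups lay far apart, and *Cbx2* had log2 fold changes of 1.52 ± 0.21 (adjusted p = 0.0118) and 1.54 ± 0.14 (adjusted p = 0.00083).

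*Cbx8*, another chromodomain subunit, was at 5.00, 6.03 and 5.74 TPM in *D/F* DMSO and 17.0, 14.3 and 14.0 TPM in CCS1477, a log2 fold change of 1.29 ± 0.15 (adjusted p = 0.0085). *T/F* cells had 8.81, 6.73 and 4.79 TPM in DMSO and 9.90, 13.0 and 11.6 TPM in CCS1477 (log2 fold change 0.71 ± 0.21, adjusted p = 0.0366). *Rybp*, which marks the variant PRC1 complexes without a CBX subunit, was at 24.8, 20.2 and 24.8 TPM in *D/F* DMSO and 43.4, 45.4 and 45.6 TPM in CCS1477. It was at 28.3, 29.0 and 26.8 TPM in *T/F* DMSO and 40.4, 39.6 and 36.7 TPM in CCS1477. The treatments did not overlap for either gene in either genotype. The *Rybp* log2 fold change was 0.92 ± 0.15 in *D/F* (adjusted p = 0.018) and 0.46 ± 0.07 in *T/F* (adjusted p = 0.00376). Its share of the sum with its paralog *Yaf2* was 42.8% to 46.0% in *D/F* DMSO and 63.4% to 68.4% in CCS1477, and 52.7% to 55.3% and 61.0% to 63.4% in *T/F*.

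**Figure D3:**
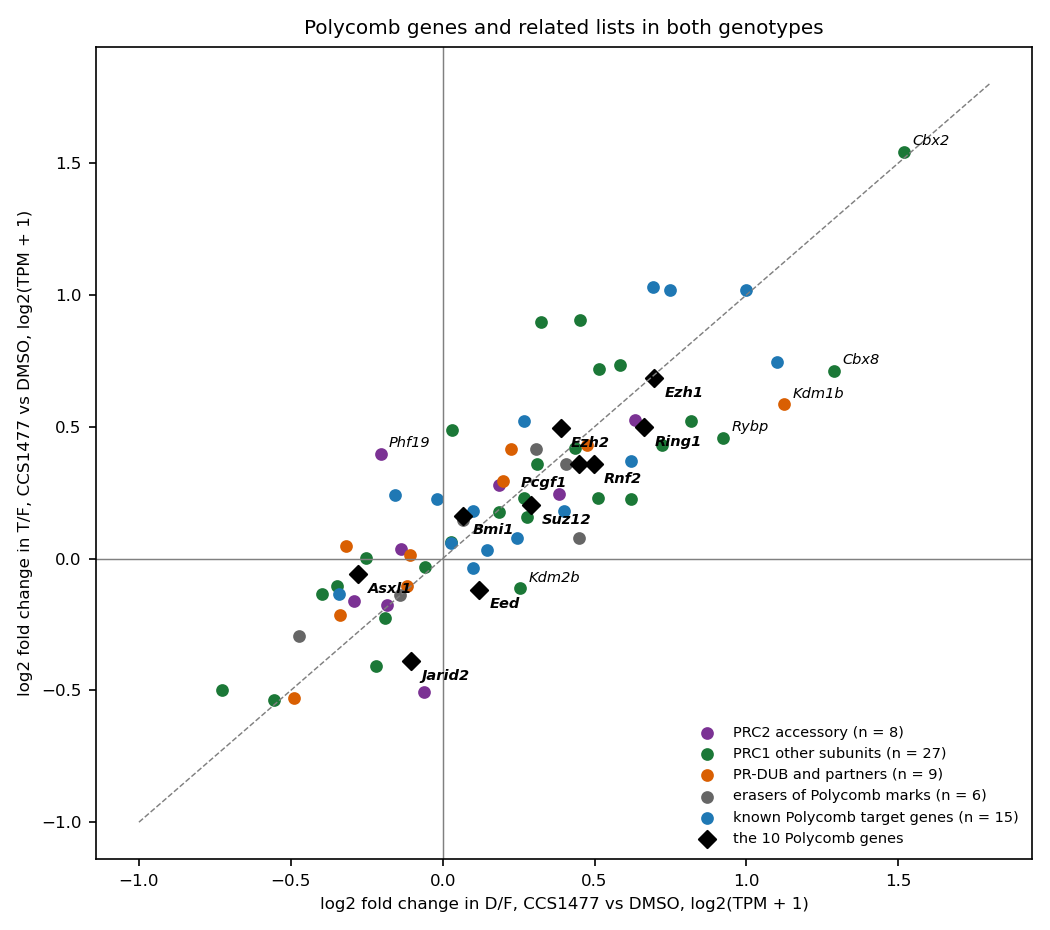
Log2 fold change of CCS1477 over DMSO on the log2(TPM + 1) scale in *D/F* (horizontal) and *T/F* (vertical), with 1 point per gene, black diamonds for the 10 Polycomb genes, colors for 5 lists of related genes and a dashed line where both genotypes are equal. *Cbx2*, *Cbx8*, *Rybp* and *Kdm1b* lie farther from the origin than all 10 Polycomb genes, and *Phf19*, *Kdm2b* and *Eed* lie in the quadrants where the genotypes differ in sign.

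**Figure D4:**
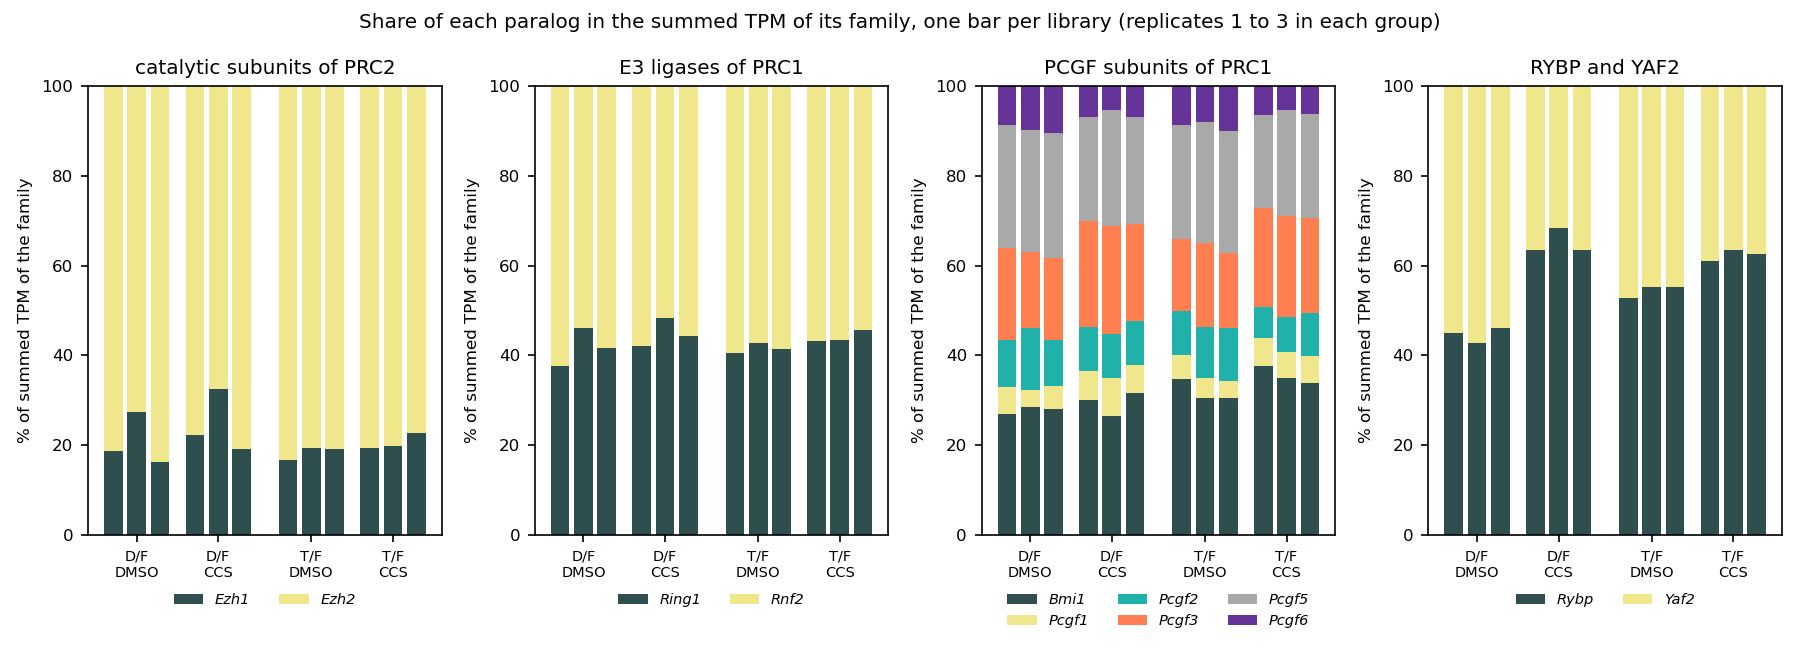
Share of each paralog in the summed TPM of its family (vertical axes, percent), with 1 bar per library and 3 libraries per group, for the catalytic subunits of PRC2, the E3 ligases and PCGF subunits of PRC1, and the pair of *Rybp* and *Yaf2*. *Ezh1* takes 16.3% to 32.5% of its pair and *Ring1* 37.7% to 48.3%, and the *Rybp* share of its pair is higher in each CCS1477 library (61.0% to 68.4%) than in any DMSO library (42.8% to 55.3%).

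Of 8 PRC2 accessory genes with values, 0 passed in *D/F* in limma (1 at an unadjusted p under 0.05, and 2 higher with the mouse as a block) and 5 in *T/F*, where 11.6%, 39.3% and 43.4% of all genes passed in *D/F*, in *D/F* with the block and in *T/F*. The 5 had log2 fold changes of 0.53 for *Phf1*, 0.40 for *Phf19*, 0.28 for *Lcor*, 0.25 for *Rbbp4* and -0.51 for *Epop*; these 5 were named after their values were seen. *Phf1* and *Phf19* encode Polycomb-like proteins that bind PRC2, and *Rbbp4* a histone chaperone in its core. Of 9 genes of the BAP1 deubiquitinase and its partners, 1 passed in *D/F* (2 higher and 2 lower with the mouse as a block) and 4 were higher and 2 lower in *T/F*, beside the same shares over all genes. *Kdm1b*, a histone H3K4 demethylase listed among these partners, passed in both genotypes, from 13.6, 17.8 and 11.9 TPM in *D/F* DMSO to 27.2, 41.4 and 29.7 TPM in CCS1477 (log2 fold change 1.12 ± 0.23, adjusted p = 0.0308) and from 13.9, 15.6 and 15.5 TPM to 22.3, 21.6 and 25.4 TPM in *T/F* (0.58 ± 0.09, adjusted p = 0.00385). Of 6 genes that remove the Polycomb marks, 0 passed in *D/F* in limma (0 at an unadjusted p under 0.05, and 1 higher and 1 lower with the mouse as a block) and 2 were higher in *T/F*, the H3K27 demethylase gene *Kdm6a* (log2 fold change 0.36) and the H2A deubiquitinase gene *Usp21* (0.42), both named after their values were seen. The same shares of all genes, 11.6%, 39.3% and 43.4%, apply to these counts.

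Most listed Polycomb targets had no values in the deposited table, which leaves out low genes. Of 42 listed, the 39 *Hox* genes and 3 cell cycle inhibitors, 15 had values and were tested. In *D/F* 0 passed in limma, 0 had an unadjusted p under 0.05 and 12 of 15 had a positive log2 fold change, as 54.8% of all genes did. With the mouse as a block 6 were higher, against 21.4% of all genes. In *T/F* 4 were higher and 0 lower, against 25.8% of all genes higher, namely *Hoxa5* (log2 fold change 1.03), *Hoxa3* (1.02), *Hoxa6* (1.02) and *Cdkn1c* (0.74), which were named after their values were seen. The 15 genes summed to 77.7 to 125 TPM in *D/F* DMSO and 96.9 to 141 TPM in CCS1477, and to 69.4 to 94.1 and 87.3 to 135 TPM in *T/F*, and the sum was higher in CCS1477 in 6 of 6 mice although the ranges overlapped in both genotypes.

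Other lists moved with the treatment alongside the Polycomb genes. Of 20 proliferation genes, 1 (*Mki67*, log2 fold change 0.75) was higher in *D/F* (6 with the mouse as a block), and 12 were higher and 1 (*Mcm5*, -0.20) lower in *T/F*, where 5.14%, 21.4% and 25.8% of all genes were higher in *D/F*, in *D/F* with the block and in *T/F*. Within mice, 11 of the 20 were higher and 4 lower in CCS1477 in 6 of 6 mice, where 31.8% and 24.2% of all genes were. The 4 were *Mcm2*, *Mcm3*, *Mcm5* and *Mcm6*, and like *Mki67* they were named after their values were seen. The 20 proliferation genes summed to 3806 to 4165 TPM in *T/F* DMSO and 4906 to 5336 TPM in CCS1477, and to 2996 to 4132 and 3105 to 5391 TPM in *D/F*, where replicate 2 was the lowest under both treatments. Of 14 myeloid progenitor and blast markers, limma called 7 lower in *D/F*, 12 lower in *T/F* and 0 higher, where 6.51% and 17.6% of all genes were lower, and the level of each of the 14 was lower in 6 of 6 mice. Their sum was 4545 to 10959 TPM in *D/F* DMSO and 1012 to 4526 TPM in CCS1477, and 4934 to 7132 and 1981 to 3320 TPM in *T/F*. Macrophage markers summed to 16.0 to 32.1 TPM in the 6 DMSO libraries and to 2.72 to 12.3 TPM in CCS1477, megakaryocyte markers to 34.9 to 212 and 20.1 to 65.4 TPM, mast cell and basophil markers to 51.1 to 262 and 30.4 to 63.1 TPM, B cell markers to 12.2 to 25.6 and 5.54 to 15.9 TPM, and T and NK cell markers to 15.8 to 28.1 and 13.8 to 23.5 TPM. Erythroid markers summed to 12.5 to 27.7 and 10.8 to 24.8 TPM, mature neutrophil markers to 2328 to 9363 and 1626 to 9308 TPM, and the endothelial *Pecam1*, alone of its list in the table, was at 56.2 to 149 and 15.1 to 24.6 TPM. Within mice, the macrophage, megakaryocyte, mast cell and basophil, B cell and erythroid sums and *Pecam1* were higher in CCS1477 in 0 of 6 mice. The T and NK cell sum was higher in 1 of 6 and the mature neutrophil sum in 2 of 6. Of the 7 mature neutrophil markers, 3 were lower in 6 of 6 mice and 4 were mixed, where 24.2% of all genes were lower. The 3 were *Ly6g*, *Mmp8* and *Camp*, named after their values were seen. The part of these lists in the responses of the Polycomb genes was not tested.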

How the data were processed

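RNA was sequenced from c-Kit+ leukemic splenocytes of 3 *D/F* and 3 *T/F* mice after 6 hours in CCS1477 or DMSO. The authors deposited gene-level TPM, and the submitters' notes name kallisto and the mm10 build (labels: ribosomal RNA depletion and a stranded mRNA kit). Annotation and strand setting are not given in the sources used here, and 6 of the 10 genes overlap an annotated gene on the opposite strand, 2 of them a gene with its own TPM. The lowest of the genes' maxima was 2.0 TPM, so low genes had been left out. Ensembl identifiers were matched to symbols and to GENCODE vM21 (GRCm38) positions, and 15252 of 15651 matched. limma 3.58.1 in R 4.3.3 was run on log2(TPM + 1) for genes averaging 1 TPM or more in any group of the fit (eBayes, no trend), with two-sided p-values adjusted by Benjamini-Hochberg over all genes tested. Fold changes are on that scale and understate those of low genes. Genes were called at an adjusted p under 0.05. Exact permutation tests of 3 against 3 libraries and exact sign-flip tests of 6 within-mouse differences were run for single genes (scipy 1.17.1).

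The labels give each mouse a number, so equal numbers pair its CCS1477 and DMSO cells. After subtracting group means, libraries of a mouse correlated at 0.539, 0.669 and 0.541 (*D/F*) and at 0.383, 0.354 and 0.496 (*T/F*), and those of different mice at 0.141 at most. Replicates were not identical in any pair. Simulated data served to test the fitting code. The 10 genes and all lists were chosen with earlier results of these data known. Beyond the 10, the genes named are up to 3 per list and direction with the largest mean log2 fold change among those called the same way in both genotypes and averaging 5 TPM or more in a group, and the 3 most like *Ezh1* and *Ezh2*. Other genes are named, after their values were seen, for some counts of 5 or fewer, where the genotypes differed in sign, or as PCGF subunits. Genes behind other counts of that size are not named. Alternatives changed the pseudocount (0.1), the filter (5 TPM or none), the scaling (median gene or quantiles), the eBayes trend, the blocking by mouse, the samples fitted together (all 4 groups) and the mice included (each left out in turn).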

Additional observations from a re-analysis of the deposited data

Results flagged for a closer look

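In 3 genes, each *D/F* mouse moved one way with CCS1477 and each *T/F* mouse the other, a split that 2.06% of all 15583 genes showed. The search covered the 10 genes and the related lists. Those lists held 8 PRC2 accessory genes, 27 other PRC1 subunits, 9 genes of BAP1 and partners, 6 erasers and 15 targets with values. Of the 3, only *Eed* is among the 10. The response of *Eed* in *T/F* minus that in *D/F* was -0.24 on the log2 scale, with within-mouse log2 differences of 0.29, 0.04 and 0.04 for the *D/F* mice and -0.06, -0.18 and -0.11 for the *T/F* mice. That of *Phf19*, a Polycomb-like partner of PRC2, was 0.60, with differences of -0.10, -0.48 and -0.03 for the *D/F* mice and 0.46, 0.38 and 0.36 for the *T/F* mice. That of *Kdm2b*, which brings variant PRC1 to CpG islands, was -0.36, with differences of 0.07, 0.34 and 0.36 for the *D/F* mice and -0.05, -0.12 and -0.16 for the *T/F* mice. None passed the test of the difference itself in limma over all genes (adjusted p = 1.0 each, unadjusted p = 0.102, 0.00946 and 0.12), nor with the mouse as a block (adjusted p = 0.372, 0.203 and 0.251). The dose differed between the genotypes and cannot be told apart from them here.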

How the results depend on the processing

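The count of the 10 genes called in *D/F*, 0 as reported, was 1 with a filter at 5 TPM (*Rnf2*) and 1 with eBayes with a trend (*Rnf2*), 3 with quantile normalization (*Ring1*, *Rnf2* and *Suz12*), 3 with the mouse as a replicate block (*Ezh1*, *Ring1* and *Rnf2*) and 5 in a shared fit of 4 groups; leaving out each mouse gave 0 to 3, with 0 genes called in the whole table without replicate 1 or without replicate 3. In *T/F*, 7 as reported, it was 4 after rescaling to the median gene (3 higher, 1 lower), 3 in the shared fit and 2 to 5 with a mouse left out, lowest without replicate 2 (*Ring1* and *Ezh2*) and 3 without replicate 3 (*Ring1*, *Ezh1* and *Ezh2*). The cause of these shifts was not tested. Fits with a mouse left out also hold fewer samples. Over both genotypes, 6 as reported, the count was 4 to 7 in every alternative, and the comparisons between genotypes gave 0 in every alternative. The mouse as a block also added *Jarid2* over both genotypes and changed no other call among the 10. Over all genes, *T/F* gave 3935 higher and 2685 lower as deposited and 3053 and 3141 after rescaling to the median gene, and *D/F* gave 796 and 1009 as deposited, 1550 and 1289 with quantile normalization, 3312 and 2786 with the mouse as a block and 2092 and 1647 without replicate 2. The sign changed for 3 log2 fold changes that did not pass as reported: with a mouse left out, *Bmi1* in *D/F* ranged from -0.004 to 0.203, *Asxl1* in *T/F* from -0.108 to 0.007 and *Eed* over both genotypes from -0.057 to 0.038, and *Eed* was -0.062 after rescaling to the median gene. Alternatives gave 490 values for the 10 genes together with *Cbx2*, *Cbx8*, *Rybp* and *Kdm1b*, which had been named because they passed in both genotypes. Of these values, 422 kept their direction and side of the threshold, 40 lost the call, 22 gained it and 6 changed sign. They are therefore not a measure of the 10 genes alone. TPM keeps no read numbers, so depth sets no interval here, and 3 mice per group limit the precision.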
